A study of Mus musculus with 16 samples.

Results

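The genes described here are 10 of the ADAMTS group, Adamts1, Adamts2, Adamts4, Adamts5, Adamts7, Adamts8, Adamts9, Adamts10, Adamts15 and Adamtsl2, among 38087 gene rows measured in one experiment and 54232 in another. They were picked by symbol, because Adamts8 was higher and Adamts7 lower in mouse hearts lacking CAP2, so the levels of those 2 genes are given as a description, without a test. CAP2 is an actin regulator of striated muscle, where it helps filaments to be taken apart and rebuilt. Experiment A measured hearts of 86-week-old C57BL/6 females, 3 of the genotype CAP2 -/-, for which the labels name no restriction to a cell type, and 3 wild type (WT). Experiment B measured hearts of 13-week-old C57BL/6 mice. All of them were Loxp/Loxp; 4 carried Cre under the promoter of the heart muscle myosin gene Myh6, which is active in cardiomyocytes (Cre+, 3 females and 1 male), and 5 carried no Cre (control, 3 females and 2 males). No mouse of experiment B carried Cre without the loxP allele, so effects of Cre itself cannot be told apart from those of losing Cap2 there.

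ADAMTS proteins are secreted zinc metalloproteinases with a propeptide, a catalytic domain, a disintegrin-like region and thrombospondin repeats, and they work on the matrix between cells. One branch cleaves the large proteoglycans aggrecan and versican (Adamts1, Adamts4, Adamts5, Adamts8, Adamts9 and Adamts15), another removes the N-terminal propeptide of fibrillar procollagens (Adamts2), and Adamts7 cleaves COMP, the cartilage oligomeric matrix protein. Adamts10 binds fibrillin microfibrils. Adamtsl2 belongs to the ADAMTS-like proteins, which keep the thrombospondin repeats but have no protease domain; it binds fibrillin and LTBP1, the protein that stores TGF-beta in the matrix, and is mutated in the human growth disorder geleophysic dysplasia. In the developing mouse heart, versican cleavage by members of the first branch takes part in shaping the trabeculae and the valves.

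What makes a member a protease is a short stretch of the catalytic domain in which 3 histidines hold the zinc ion, the second 4 and the last 10 residues after the first. The coding bases of this stretch are shown for Adamts8 and its chromosomal neighbour Adamts15, for Adamts7 and for Adamts2, which are the proteases the results below turn on. The histidine codons are in capitals, written 5′ to 3′ on the coding strand as annotated by GENCODE M21 (mm10).
Adamts8: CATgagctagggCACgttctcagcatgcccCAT
Adamts15: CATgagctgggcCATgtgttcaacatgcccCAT
Adamts7: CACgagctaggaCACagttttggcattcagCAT
Adamts2: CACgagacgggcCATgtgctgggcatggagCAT
The Adamts15 stretch had the same base as that of Adamts8 at 27 of 33 positions, that of Adamts7 at 23 and that of Adamts2 at 21. The stretch was found once in 9 of the 10 members, split over 2 exons in each, and not in the 957 residues of Adamtsl2. Its first and last bases lie at chr9:30952721-30953378 on the plus strand for Adamts8 (exons 3 and 4), at chr9:30911255-30911690 on the minus strand for Adamts15 (exons 2 and 3), at chr9:90179456-90180640 on the plus strand for Adamts7 and at chr11:50775403-50776134 on the plus strand for Adamts2 (exons 7 and 8 in both), with an intron in between.

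Estimated counts summed to between 10750175 and 27440478 per library in experiment A. Its values are given below as CPM, counts scaled by a library total over tested genes that was adjusted by TMM. The values of experiment B are the authors' normalized counts, whose sequencing depth is unknown; nuclear genes summed to 3815980 to 4044523 per library. The share of mitochondrially encoded genes was 23.0% to 52.7% in Cre+ and 30.4% to 69.5% in control libraries. Cap2, the targeted gene, had 8.36, 16.1 and 12.0 CPM in CAP2 -/- hearts, against 197, 217 and 228 CPM in WT hearts. In Cre+ hearts of experiment B there were 33, 60, 80 and 87 normalized counts, against a median of 342 and a highest value of 878 in control hearts, with every control library above every Cre+ library. Both comparisons of Cap2 follow the labels. Control replicate 4 stood apart, with the highest Cap2 value of the controls and their lowest value of each of the 10 genes but Adamts7, so the larger differences of experiment B are also given without it. All samples were RNA of heart tissue with its cell types mixed, in which fewer cells of a type and less RNA per cell cannot be told apart. The share of atrial tissue in each sample was not measured, and atrial markers are given below.

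Apart from Adamts8 and Adamts7, 1 of 8 members was called (adjusted p under 0.05 over all genes tested) in experiment A (Adamtsl2) and 2 of 7 tested in experiment B (Adamtsl2 and Adamts2). Over all genes, 1.35% of 16297 were called in experiment A (137 higher, 0.841%, and 83 lower, 0.509%) and 1.88% of 12141 in experiment B (115 higher, 0.947%, and 113 lower, 0.931%, or 152 and 66 after TMM scaling and 211 and 124 after quantile normalization). Groups did not overlap for 2 of the 8 in experiment A and for 2 of the 7 in experiment B, both times Adamts2 and Adamtsl2 and both times higher. Over all genes tested, groups did not overlap for 15.6% in experiment A and 8.66% in experiment B, and they did not overlap and were higher without CAP2 for 7.63% and 3.87%, or lower for 8.0% and 4.79%. The median log2 fold change over the members tested, with Adamts8 and Adamts7, was 0.12 in experiment A and 0.54 in experiment B, against 0.01 and -0.12 over all genes. The counts are too small to set the members apart from other genes.

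Adamts8, a weak aggrecan-cleaving protease that is also known to restrain blood vessel growth, was low in hearts with CAP2 and higher in those without. It had 6.98, 13.1 and 11.1 CPM in CAP2 -/- hearts, against 1.66, 0.83 and 0.67 CPM in WT hearts. All CAP2 -/- libraries were above all WT libraries. The means were 10.4 ± 3.10 and 1.05 ± 0.53 CPM (SD, n = 3 each), a log2 fold change of 3.22 (SE 0.35), or 3.83 without WT replicate 1. Cre+ hearts of experiment B had 134, 1302, 1179 and 350 normalized counts, against 3, 7, 25, 2 and 31 in control hearts. The groups were again apart. On the log2(value + 1) scale, which understates changes of genes with low values, the log2 fold change was 5.73 (SE 0.85), 6.37 without Cre+ replicate 1 and 5.35 without control replicate 4.

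Adamts8 lies on chromosome 9 (30942562 to 30963838, plus strand, mm10), and part of it shares bases with Gm29724, a noncoding gene on the opposite strand. The strand setting of the authors' counting is not given in the sources used here, so the reads of the pair cannot be told apart where they overlap. Gm29724 is listed at 0 in all 9 libraries of experiment B. In experiment A the deposited rows per exon split Adamts8 into 9 exonic blocks, of which 6 held at least 30 estimated counts over the 6 libraries. All 6 had a higher mean in CAP2 -/- hearts, by 3.33-fold to 31.0-fold, and 5 of them did not overlap between the groups. The 3 of these blocks that lie outside Gm29724 were all higher. The last block, which is in the overlap and had the highest mean, held 3.62, 5.57 and 3.71 CPM in CAP2 -/- hearts, against 0.70, 0.28 and 0.059 CPM in WT hearts.

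Adamts15 is the nearest family gene, a versican-cleaving protease that starts 20.11 kb from Adamts8 and is read in the opposite direction (30899155 to 30922452, minus strand). It had 13.6, 6.54 and 10.5 CPM in CAP2 -/- hearts, against 10.9, 9.08 and 10.3 CPM in WT hearts. These ranges overlapped in full, and the log2 fold change was 0.0039 (SE 0.24, edgeR adjusted p = 0.998). Cre+ hearts of experiment B had 33, 37, 230 and 116 normalized counts, against 100, 32, 69, 27 and 69 in control hearts (log2 fold change 0.51, SE 0.60, limma adjusted p = 0.639). Within a library, the log2 ratio of Adamts8 to Adamts15 was 0.04 ± 0.98 in CAP2 -/- and -3.37 ± 0.62 in WT hearts (SD, n = 3 each), and 2.76 ± 1.59 in Cre+ (n = 4) and -2.50 ± 1.45 in control hearts (n = 5). This ratio is a description, since Adamts8 chose the set.

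**Figure D1:**
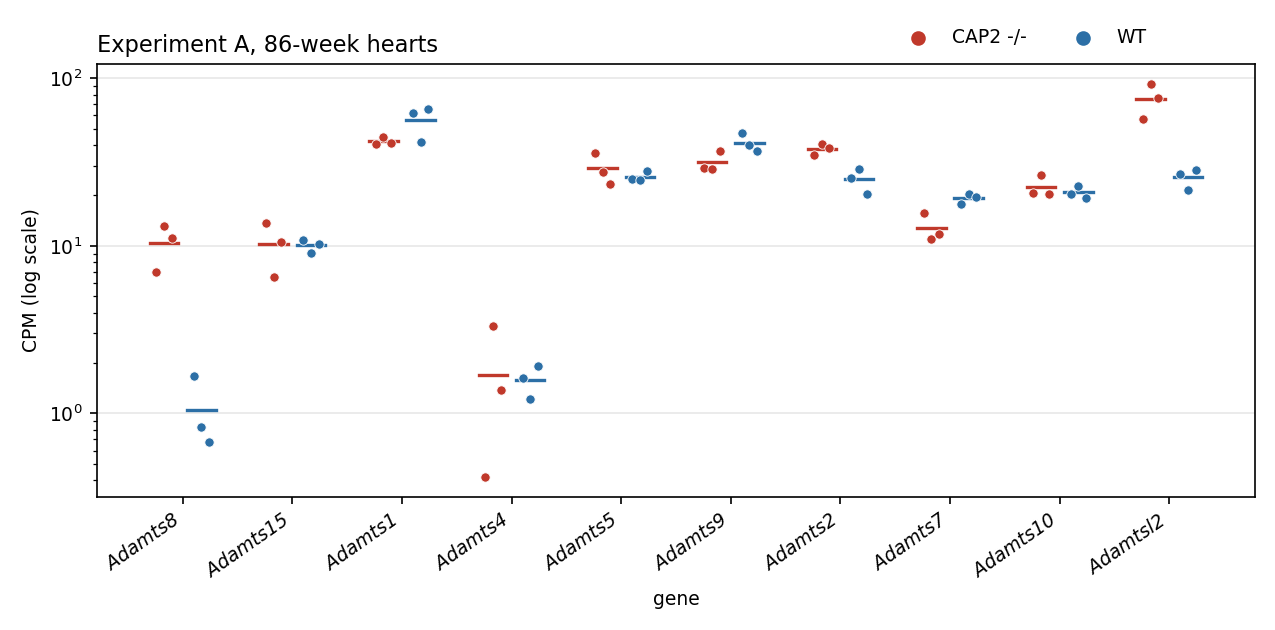
CPM of the 10 genes on a log axis in the 3 CAP2 -/- (red, left) and 3 WT libraries (blue, right) of experiment A; points are libraries and bars are group means. Adamts8, Adamts2 and Adamtsl2 lie higher in all CAP2 -/- libraries and Adamts7 lies lower, while the other 6 genes overlap.

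Of the other proteases that cleave aggrecan and versican and were tested, none passed the test in either experiment. Adamts1, needed in mice for the trabeculae and the urinary tract, had 40.8, 44.7 and 41.1 CPM in CAP2 -/- hearts, against 61.8, 41.8 and 66.0 CPM in WT hearts (log2 fold change -0.43, SE 0.15, edgeR adjusted p = 0.287). WT replicate 2 lay among the CAP2 -/- values, and without it the adjusted p was 0.0444. In experiment B Adamts1 had 115, 130, 338 and 611 normalized counts in Cre+ hearts, against 123, 109, 163, 94 and 374 in control hearts (log2 fold change 0.80, SE 0.46, limma adjusted p = 0.320). The ranges overlapped in both experiments.

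Adamts9, a versican-cleaving protease of the developing valves in mice, had 29.1, 28.9 and 36.9 CPM in CAP2 -/- hearts, against 46.9, 40.2 and 36.6 CPM in WT hearts (log2 fold change -0.38, SE 0.15, edgeR adjusted p = 0.322). Only CAP2 -/- replicate 3 reached the WT range. In Cre+ hearts it had 83, 141, 181 and 239 normalized counts, against 134, 116, 105, 67 and 108 in control hearts (log2 fold change 0.54, SE 0.33, limma adjusted p = 0.344). Adamts5, the main aggrecan-cleaving enzyme of mouse cartilage, had 35.8, 27.7 and 23.5 CPM in CAP2 -/- hearts, against 24.9, 24.8 and 27.9 CPM in WT hearts (log2 fold change 0.16, SE 0.16, edgeR adjusted p = 0.804). In experiment B it had 219, 363, 502 and 128 normalized counts in Cre+ hearts, against 124 to 333 with a median of 249 in control hearts (log2 fold change 0.19, SE 0.36, limma adjusted p = 0.774). Adamts4, the other classical aggrecanase, was near the lower limit of both experiments. It had 0.42, 3.30 and 1.38 CPM in CAP2 -/- hearts, against 1.63, 1.21 and 1.90 CPM in WT hearts (log2 fold change 0.12, SE 0.54, edgeR adjusted p = 0.967). With 2, 1, 3 and 6 normalized counts in Cre+ hearts, against 4, 4, 2, 1 and 3 in control hearts, it was below the minimum mean of 10 and was not tested there.

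Adamts5 and Adamts1 form another pair of neighbours, both on the minus strand of chromosome 16 and 53.06 kb apart. The log2 ratio of Adamts5 to Adamts1 within a library was -0.56 ± 0.33 in CAP2 -/- and -1.10 ± 0.30 in WT hearts (SD, n = 3 each). The difference of 0.54 gave a two-sided exact permutation p of 0.2 (0.4 after Benjamini-Hochberg adjustment over the 2 ratios tested), where 3 against 3 libraries cannot go below 0.1. In experiment B the ratio was 0.18 ± 1.66 in Cre+ (n = 4) and 0.52 ± 0.64 in control hearts (n = 5), a difference of -0.34 with a two-sided exact permutation p of 0.762 (adjusted 0.762, smallest possible 0.0159).

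Adamts2, which trims the N-terminal propeptide of procollagens so that collagen fibrils can form (chromosome 11, 50602084 to 50807573), was higher in all libraries without CAP2. It had 34.7, 40.8 and 38.2 CPM in CAP2 -/- hearts, against 25.4, 28.8 and 20.4 CPM in WT hearts. The groups did not overlap, but the log2 fold change of 0.61 (SE 0.15) just missed the threshold, with an edgeR adjusted p of 0.0581. The authors' deposited table gives an adjusted p of 0.0158 for Adamts2. It passed with DESeq2 here (0.0197), without the filter on low counts (0.00990), without CAP2 -/- replicate 1 (0.0427) and without WT replicate 2 (0.0410). All 19 of its exonic blocks with at least 30 estimated counts had a higher mean in CAP2 -/- hearts, by 1.07-fold to 2.41-fold, 5 of them without overlap.

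In experiment B Adamts2 rose. It had 351, 753, 1391 and 337 normalized counts in Cre+ hearts, against 79, 105, 121, 74 and 309 in control hearts. Control replicate 5 came close to the lowest Cre+ library, and the other 4 controls were far below. The log2 fold change was 2.31 (SE 0.51, limma adjusted p = 0.0452). The call did not hold without control replicate 4 (2.15, adjusted p = 0.0578), nor without Cre+ replicate 2, 3 or 4 (adjusted p = 0.141, 0.129 and 0.0717) or control replicate 1, 2 or 3 (0.136, 0.121 and 0.0965).

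Adamts7 (chromosome 9, 90163069 to 90208071, plus strand) encodes the COMP-cleaving protease, known from vascular smooth muscle and linked to coronary disease in humans. It had 15.7, 11.0 and 11.7 CPM in CAP2 -/- hearts, against 17.7, 20.4 and 19.6 CPM in WT hearts. All CAP2 -/- libraries were below all WT libraries, though CAP2 -/- replicate 1 was close to WT replicate 1. The means were 12.8 ± 2.53 and 19.2 ± 1.34 CPM (SD, n = 3 each), a log2 fold change of -0.59 (SE 0.18). In experiment B it had 53, 23, 34 and 15 normalized counts in Cre+ hearts, against 192, 221, 200, 87 and 70 in control hearts. The female controls, replicates 1 to 3, were the highest and the male controls, replicates 4 and 5, lay between them and the Cre+ hearts. The log2 fold change, with sex as a term, was -2.46 (SE 0.27) and was -2.43 without control replicate 4.

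The end of Adamts7 overlaps Tbc1d2b on the opposite strand, whose own log2 fold change was -0.17 in experiment A (edgeR adjusted p = 0.778) and -0.52 in experiment B (limma adjusted p = 0.374). Of the 23 exonic blocks of Adamts7, 17 held at least 30 estimated counts, none of them in the overlap. In 16 of the 17 the mean was lower in CAP2 -/- hearts, and in 5 of these the groups did not overlap. The ratio of the means ran from 0.24 to 1.15, the last value in block 22. The lower means were spread over most of these blocks. The blocks are parts of the gene's own level, which chose the set, so this is a description.

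**Figure D2:**
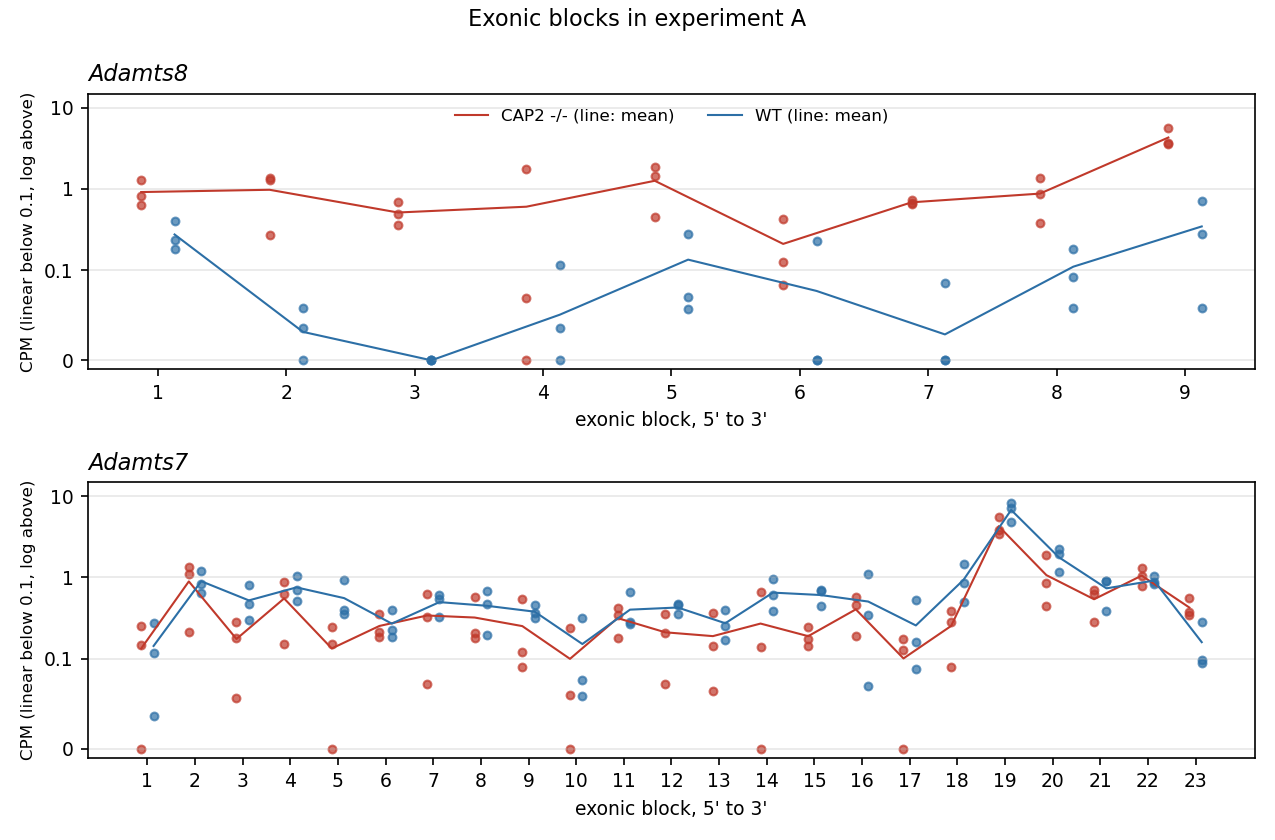
CPM per exonic block of Adamts8 (top) and Adamts7 (bottom) in experiment A, in block order 5′ to 3′ along each gene, on an axis that is linear below 0.1 and logarithmic above. Points are libraries and lines are group means; the CAP2 -/- line (red) is above the WT line (blue) in every block of Adamts8, and in Adamts7 it is lower in 16 of the 17 blocks with at least 30 estimated counts.

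Adamts10, the fibrillin-binding protease, had 20.6, 26.4 and 20.3 CPM in CAP2 -/- hearts, against 20.4, 22.8 and 19.3 CPM in WT hearts (log2 fold change 0.11, SE 0.16, edgeR adjusted p = 0.879). In experiment B its libraries were spread widely, at 1314, 390, 515 and 223 normalized counts in Cre+ hearts, against 564, 778, 1051, 50 and 346 in control hearts (log2 fold change 0.05, SE 0.54, limma adjusted p = 0.967). Without control replicate 4, the library with 50, the log2 fold change was -0.36 (limma adjusted p = 0.574).

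Adamtsl2, the member without a protease domain (chromosome 2, 27079379 to 27108981, plus strand), rose in both experiments. It had 57.0, 92.7 and 75.9 CPM in CAP2 -/- hearts, against 27.0, 21.5 and 28.3 CPM in WT hearts. All CAP2 -/- libraries were above all WT libraries. The log2 fold change was 1.55 (SE 0.17, edgeR adjusted p = 0.000202), and the authors' deposited table gives 1.55 with an adjusted p of 2.89e-14. The rise ran along the gene, with a higher mean in all 17 exonic blocks that held at least 30 estimated counts (1.69-fold to 5.15-fold) and no overlap in 13 of them. In experiment B it had 1685, 2598, 3601 and 944 normalized counts in Cre+ hearts, against 574, 257, 494, 23 and 302 in control hearts. Every Cre+ library was again above every control library (log2 fold change 2.86, SE 0.61, limma adjusted p = 0.0432). Without control replicate 4 the log2 fold change was 2.35 (limma adjusted p = 0.00414). The call was lost without Cre+ replicate 2, 3 or 4 (adjusted p = 0.119, 0.136 and 0.226) or control replicate 1, 2 or 3 (0.101, 0.121 and 0.0759), while the direction held in every one of these.

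The 250 bases before the start of Adamtsl2 (chr2:27079129-27079378, plus strand, RefSeq, GRCm38.p6) are shown because it is the member called in both experiments; the capitals mark the letters TATAAA, whose first base lies 30 bases before the start.
Adamtsl2: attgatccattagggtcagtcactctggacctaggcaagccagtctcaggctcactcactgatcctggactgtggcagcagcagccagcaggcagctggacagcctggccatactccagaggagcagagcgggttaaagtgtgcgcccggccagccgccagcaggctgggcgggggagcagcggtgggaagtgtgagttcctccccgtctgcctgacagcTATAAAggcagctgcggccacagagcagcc
The RefSeq promoter table held 4 of the 10 members, Adamts1, Adamts2, Adamts9 and Adamtsl2. Searched on both strands of the 250 bases, TATAAA was found in Adamtsl2 and Adamts1 and in 12.4% of all 32851 promoters. The CArG box, the motif bound by the serum response factor SRF, which the study title names, was found in none of the 4 and in 1.47% of all promoters. These are counts of letters in one window and say nothing about binding.

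**Figure D3:**
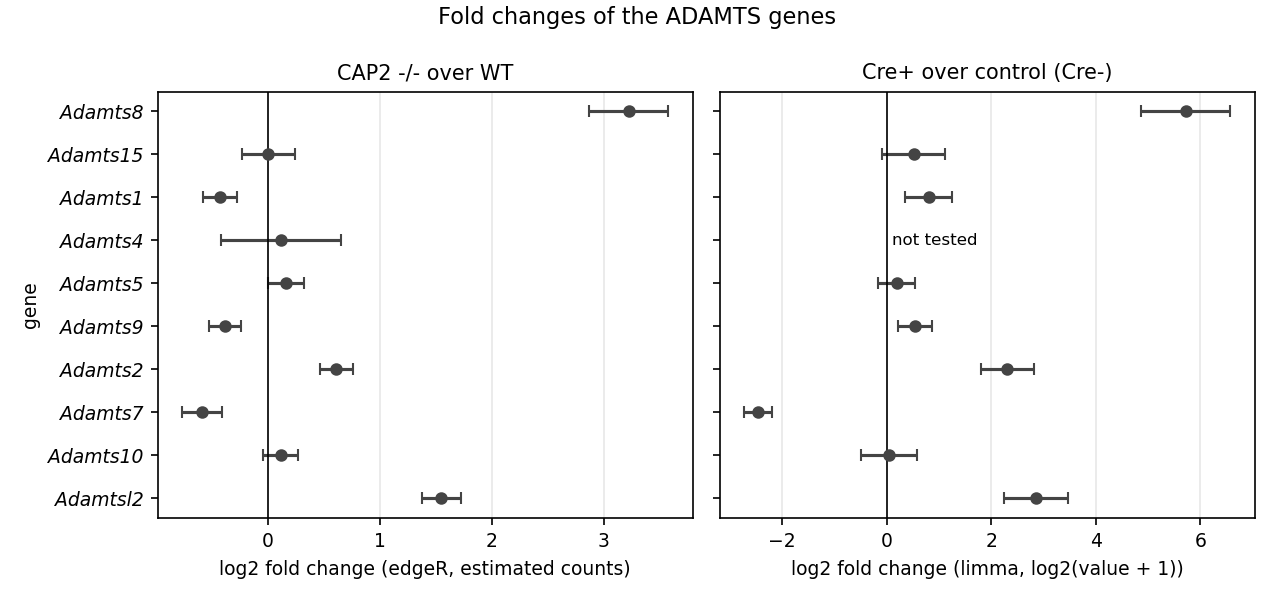
Log2 fold changes of the 10 genes, CAP2 -/- over WT on the left and Cre+ over control on the right, with the horizontal axes on different ranges; bars are standard errors. Adamts8, Adamtsl2 and Adamts2 lie to the right of 0 in both panels and Adamts7 to the left; Adamts4 was not tested in experiment B.

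**Figure D4:**
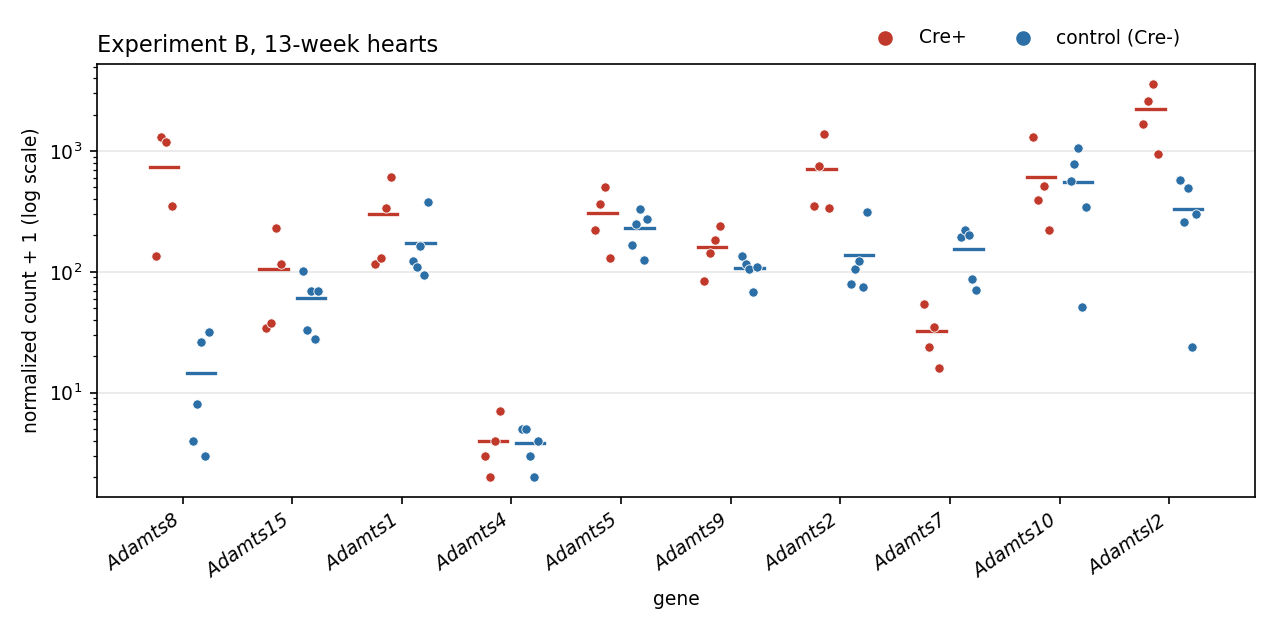
Normalized counts plus 1 of the 10 genes on a log axis in the 4 Cre+ (red, left) and 5 control libraries (blue, right) of experiment B; points are libraries and bars are group means. Adamts8, Adamts2 and Adamtsl2 lie higher in all Cre+ libraries and Adamts7 lies lower.

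Levels of different genes were compared per kilobase of exonic length. In CAP2 -/- hearts Adamtsl2 came first, with 9.41 ± 2.23 CPM per kb, followed by Adamts1 (7.96 ± 0.41) and Adamts2 (4.06 ± 0.33), and Adamts8 stood sixth at 2.25 ± 0.67 (SD, n = 3). Adamts4 was lowest at 0.35 ± 0.31 CPM per kb. In WT hearts Adamts1 came first, at 10.7 ± 2.44 CPM per kb, apart from all others, and Adamts8 came last at 0.23 ± 0.12. Between these, Adamtsl2, Adamts7, Adamts9, Adamts2, Adamts10 and Adamts5 lay at 3.20 to 2.40 CPM per kb, each overlapping its neighbour in the order. In both groups 6 of the 9 neighbouring pairs overlapped. In Cre+ hearts Adamtsl2 (276 ± 144 normalized counts per kb) and Adamts8 (161 ± 127) came first, and Adamts7 was ninth at 4.97 ± 2.62 (n = 4). In control hearts Adamts10 (67.6 ± 46.7) and Adamtsl2 (41.3 ± 27.0) came first, Adamts7 was the fourth at 24.5 ± 11.1 and Adamts8 the ninth at 2.95 ± 2.91 (n = 5). Neighbours overlapped in 8 of 9 pairs in Cre+ and in all 9 in control hearts, so most of these ranks do not differ beyond the spread.

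The genes whose profile over the libraries was most like that of Adamts8 were sought by the mean absolute difference of log2 values, each centred on its own mean. Over the 6 libraries of experiment A these were Ltbp2 (0.23), Comp (0.33), Lman1l (0.37), Mgat5b (0.37) and Ccn5 (0.37), where the median over 13164 named genes was 1.62. Ltbp2, a matrix protein related to the TGF-beta storage proteins, had 22.0, 28.2 and 35.2 CPM in CAP2 -/- hearts, against 6.50, 2.46 and 3.05 CPM in WT hearts. Over the 9 libraries of experiment B they were Tnnt3 (0.90), Tent5b (0.94), Col9a2 (0.98), Eln (1.00) and Acta1 (1.03), with a median over 11595 genes of 2.90. For Adamts7 in experiment A, which the naming rule did not cover, the nearest profiles were Tmem35b (0.05), Plscr1 (0.05), Ccl21b (0.06), Acot1 (0.06) and Hopx (0.07), with a median of 0.35. For Adamts7 in experiment B they were Pm20d1 (0.31), Cpeb3 (0.36), Ppp1r9a (0.37), Aldh9a1 (0.39) and Whrn (0.42), with a median of 1.15. The libraries share their group difference in all of these profiles, and no gene stands in both lists for Adamts8.

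The other ADAMTS and ADAMTS-like genes did not move past the threshold. Of 16, 11 were tested in experiment A and 9 in experiment B, and edgeR and limma called 0. In experiment A 0 had an unadjusted p under 0.05, against 10.4% of all genes tested, and DESeq2 called 0. In experiment B 2 of the 9 had an unadjusted p under 0.05, about the share over all genes tested there (22.1%). The median log2 fold change was -0.13 in experiment A and -0.14 in experiment B, against 0.01 and -0.12 over all genes tested. Smallest p-values belonged to Adamts12 (log2 fold change -0.87, edgeR adjusted p = 0.540), Adamts6 (0.78, 0.548) and Adamts14 (-0.82, 0.637) in experiment A, and to Thsd4 (1.24, limma adjusted p = 0.0947), Papln (-1.40, 0.111) and Adamts6 (-0.58, 0.442) in experiment B.

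The RNA of several substrates of these enzymes was higher without CAP2. Their proteins and the cleavage of them were not measured here. One list held 12 genes, those of proteoglycans and hyaluronan together with Comp. Of the 6 tested in experiment A, 3 were called higher, Comp among them, and none lower, against 0.841% of all genes tested called higher. Comp, the Adamts7 substrate, had 50.4, 56.4 and 56.0 CPM in CAP2 -/- hearts, against 3.95, 4.07 and 3.61 CPM in WT hearts (log2 fold change 3.80, SE 0.15, edgeR adjusted p = 3.27e-10). Versican (Vcan), the substrate of the aggrecanase branch, had 25.6, 49.1 and 39.8 CPM, against 17.9, 14.2 and 17.5 CPM in WT hearts (log2 fold change 1.21, edgeR adjusted p = 0.00810). The small proteoglycan biglycan (Bgn) gave a log2 fold change of 1.20 (edgeR adjusted p = 0.00415). In experiment B 1 of 5 tested genes was called higher, Bgn (2.21, limma adjusted p = 0.0488), against 0.947% of all genes tested. Comp (3.81, limma adjusted p = 0.0588) and Vcan (1.45, limma adjusted p = 0.102) did not pass, although for Comp the groups did not overlap. Aggrecan itself (Acan) was too low to be tested in either experiment.

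None of the fibrillar procollagens that Adamts2 and its relatives trim was called. In experiment A edgeR called 0 of 6 tested (2 at an unadjusted p under 0.05, against 10.4% of all genes tested, 0 with DESeq2), with Col5a2 at a log2 fold change of 0.51 (adjusted p = 0.206), Col5a3 at -0.46 (0.417) and Col3a1 at 0.33 (0.737). In experiment B limma called 0 of 6 (5 at an unadjusted p under 0.05, against 22.1% of all genes tested), with Col1a2 at 2.17 (adjusted p = 0.0772), Col1a1 at 2.39 (0.0812) and Col3a1 at 1.81 (0.101). The median log2 fold change of the list was 0.13 in experiment A and 1.73 in experiment B.

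Among 9 genes of fibrillins, TGF-beta storage proteins and TGF-beta itself, experiment A had 2 called higher, against 0.841% of all genes tested. Experiment B had 4 called higher, against 0.947%. None was called lower, although 3 of the 9 had a log2 fold change below 0 for CAP2 -/- over WT and 1 for Cre+ over control. The growth factor gene Tgfb2 had 30.9, 40.6 and 45.5 CPM in CAP2 -/- hearts, against 9.66, 8.58 and 8.90 CPM in WT hearts (log2 fold change 2.10, edgeR adjusted p = 2.42e-06). In experiment B it had 178, 271, 235 and 229 normalized counts in Cre+ hearts, against 11, 29, 43, 48 and 66 in control hearts (2.81, limma adjusted p = 0.00673). Ltbp2 rose in both (log2 fold change 2.76, edgeR adjusted p = 0.00393, and 3.74, limma adjusted p = 0.0437). In experiment B the fibrillin gene Fbn1 (1.73, limma adjusted p = 0.0247) and Tgfb3 (2.13, limma adjusted p = 0.0328) rose as well. Ltbp1, whose protein binds Adamtsl2, was not called, at -0.21 in experiment A (edgeR adjusted p = 0.691) and -0.02 in experiment B (limma adjusted p = 0.965), named for that role after its values were seen. In experiment A Fbn1 gave 0.26 (edgeR adjusted p = 0.783) and Tgfb3 0.90 (edgeR adjusted p = 0.0726). The median of the list was 0.24 in experiment A and 1.14 in experiment B.

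No gene of the last list, which regulates these proteases outside transcription, was called. In experiment A edgeR called 0 of 8 (2 at an unadjusted p under 0.05, against 10.4% of all genes tested, 0 with DESeq2). Furin, which removes the propeptide, gave a log2 fold change of -0.30 (adjusted p = 0.401), fibronectin (Fn1) 0.41 (0.449) and syndecan-4 (Sdc4) 0.28 (0.652). In experiment B limma called 0 of 7 (4 at an unadjusted p under 0.05, against 22.1% of all genes tested), with Fn1 at 1.83 (adjusted p = 0.122), Sdc4 at 1.05 (0.146) and the plasma protease inhibitor gene A2m at 2.93 (0.190). Timp3, the tissue inhibitor of several ADAMTS enzymes, named for its role after its values were seen, gave 0.16 in experiment A (edgeR adjusted p = 0.882) and -0.46 in experiment B (limma adjusted p = 0.580).

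Markers of other cell types moved with some of these genes. The summed level of 6 markers of activated fibroblasts was 194 to 372 CPM in CAP2 -/- and 49.2 to 66.7 CPM in WT hearts, and 2039 to 7652 normalized counts in Cre+ and 189 to 1489 in control hearts. Of these, 2 of 5 tested were called higher in experiment A and 3 of 6 in experiment B, against 0.841% and 0.947% of all genes tested. The 2 in experiment A were Comp and Ltbp2, already counted above in the substrate and fibrillin lists. Those in experiment B were Postn, Tnc and Ltbp2. Postn, the matrix protein periostin, was not called in experiment A (2.09, edgeR adjusted p = 0.0646). Fap, a fibroblast surface protease, had log2 fold changes of the other sign, -0.28 in experiment A (edgeR adjusted p = 0.866) and -1.10 in experiment B (limma adjusted p = 0.216). The 8 general fibroblast markers summed to 1083 to 1199 CPM in CAP2 -/- and 855 to 933 CPM in WT hearts, and to 10639 to 26766 in Cre+ and 3343 to 13055 in control hearts, with 1 of 8, Mfap5, called higher in each. This list shares Dcn with the substrates and Col1a1 and Col1a2 with the procollagens. In experiment A the largest term was Dcn, at 564 to 775 CPM in CAP2 -/- and 374 to 532 CPM in WT hearts (edgeR adjusted p = 0.156). Pdgfra, Tcf21 and Col1a1 overlapped there, with log2 fold changes of -0.12, 0.04 and -0.008. Of the 8, 6 had a log2 fold change above 0 and 2 below. Endothelial markers summed to 916 to 947 CPM in CAP2 -/- and 921 to 1014 CPM in WT hearts, and to 4357 to 6295 in Cre+ and 3536 to 7679 in control hearts. Cardiomyocyte markers, which check the labelled tissue, summed to 70148 to 84563 CPM in CAP2 -/- and 78081 to 85632 CPM in WT hearts, and to 186283 to 280426 in Cre+ and 229604 to 355144 in control hearts. None of the 8 was called in experiment A, and 1 was lower in experiment B, the calcium pump regulator Pln (-1.53, limma adjusted p = 0.0333). Muscle markers of skeletal type, a tissue the label does not name, also stood higher, at 38.5 to 49.5 CPM in CAP2 -/- and 11.1 to 20.4 CPM in WT hearts (1 of 7 called) and at 1138 to 3273 in Cre+ and 45 to 124 in control hearts (3 of 4 tested called). Casq1 was the called gene in experiment A, with 19.3 to 28.9 CPM in CAP2 -/- and 1.22 to 4.22 CPM in WT hearts, and Casq1, Tnnt3 and Tnni2 were those in experiment B. The defining skeletal myosins Myh4 and Myh1 stood at 0 or 1 normalized count in all 9 libraries of experiment B. Actn3 and Mylpf overlapped between the groups in both experiments. In experiment A all 7 markers, Myh4 and Myh1 included, were tested, and each had a log2 fold change above 0 (median 0.47). One of the markers called in experiment B, Tnnt3, is the gene most like Adamts8 there. Smooth muscle and pericyte markers, mostly the muscle gene Des, summed to 3730 to 4221 CPM in CAP2 -/- and 3586 to 3839 CPM in WT hearts, and to 28582 to 52050 in Cre+ and 12058 to 18746 in control hearts, where only Des was called. Without Des the other 6 summed to 703 to 864 CPM in CAP2 -/- and 836 to 906 CPM in WT hearts, and to 3393 to 5313 in Cre+ and 3433 to 7965 in control hearts. Macrophage markers summed to 322 to 462 CPM in CAP2 -/- and 316 to 352 CPM in WT hearts, and to 2132 to 3974 in Cre+ and 1123 to 2992 in control hearts, with none called. Valve and cartilage markers summed to 3.26 to 4.63 CPM in CAP2 -/- and 3.51 to 4.59 CPM in WT hearts, and to 28 to 61 in Cre+ and 3 to 79 in control hearts. Erythroid markers overlapped as well, at 2506 to 19250 CPM in CAP2 -/- and 4360 to 7893 CPM in WT hearts, and at 6881 to 58588 in Cre+ and 3701 to 54721 in control hearts. No marker of these lists was at 0 in all libraries. The part of the fibroblast and skeletal muscle markers in the results for Adamts2, Adamts8 and Adamtsl2 was not tested.

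Atrial markers differed widely between the libraries of experiment B. The 6 markers summed to 671, 20171, 44132 and 43918 normalized counts in Cre+ hearts, against 347, 1031, 7992, 109 and 1067 in control hearts. limma called 0 of the 6, and 2 had an unadjusted p under 0.05, against 22.1% of all genes tested. All 6 had a log2 fold change above 0, with a median of 4.03 against -0.12 over all genes tested. Cre+ replicate 1, with an atrial sum below that of control replicates 2, 3 and 5, had 134 normalized counts of Adamts8, 1685 of Adamtsl2 and 351 of Adamts2, in each case above every control. Its Adamts8 value was the lowest of the Cre+ hearts, where the others had 1302, 1179 and 350. Among controls, replicates 4 and 1 had the lowest atrial sums and the lowest Adamts8 values, 2 and 3. The lowest Cre+ values of Adamtsl2 (944) and Adamts2 (337) were in replicate 4, with an atrial sum of 43918. With the mean level of the atrial markers as a covariate, the log2 fold change of Adamts8 was 4.22, that of Adamtsl2 2.02 (limma adjusted p = 0.539) and that of Adamts2 1.81 (limma adjusted p = 0.547). With the mitochondrial share as a covariate they were 5.53, 2.94 (limma adjusted p = 0.165) and 1.89 (limma adjusted p = 0.215). In experiment A the atrial sum was 55.7 to 62.3 CPM in CAP2 -/- and 46.9 to 49.5 CPM in WT hearts. Of 5 tested, 1 was called higher, Dkk3 (log2 fold change 1.26, edgeR adjusted p = 0.00191). Stard10, the largest term, was lower without overlap and not called (-0.38, edgeR adjusted p = 0.257). Myl4 (0.76, edgeR adjusted p = 0.0856) and Bmp10 (2.97, 0.0612) were higher without overlap but not called. Myl7 overlapped between the groups, at 1.12 to 1.74 CPM in CAP2 -/- and 1.10 to 1.32 CPM in WT hearts. The cardiomyocyte marker Myl2 stood at 6889 to 11072 and 7301 to 9772 CPM in the same groups. Sln was too low to be tested. The part of the atrial markers in the results of experiment A was not tested.

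**Figure D5:**
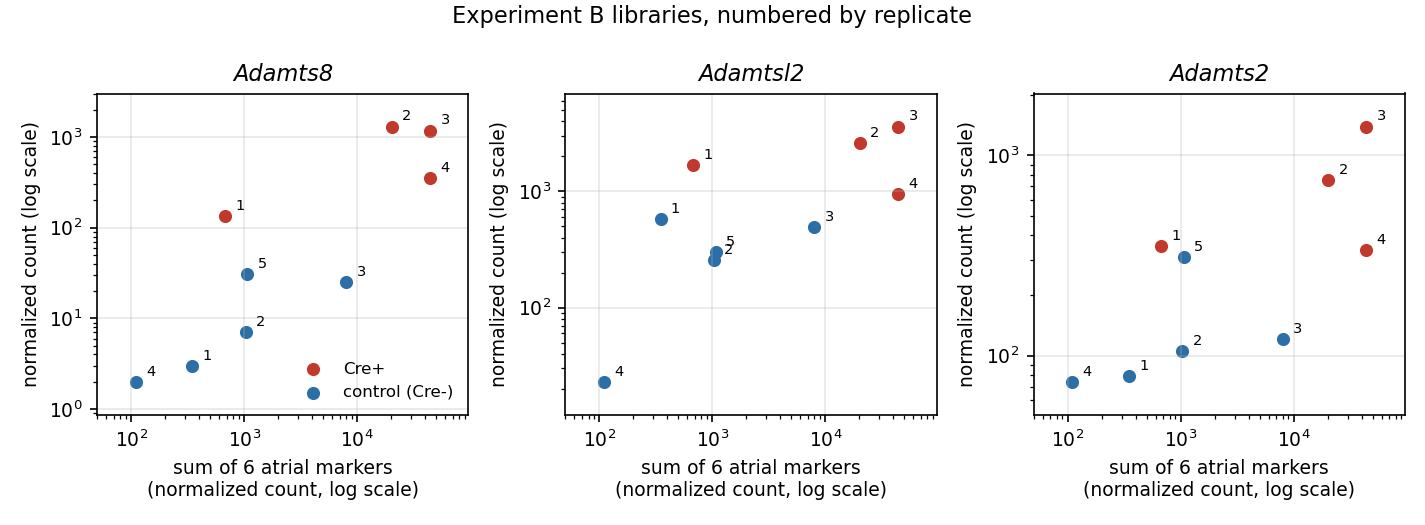
Normalized counts of Adamts8, Adamtsl2 and Adamts2 against the summed normalized counts of 6 atrial markers in the Cre+ (red) and control libraries (blue) of experiment B, both axes logarithmic, numbered by replicate. Cre+ replicate 1 lies at an atrial sum of 671, amid the controls, and above all of them in each gene. Its Adamts8 value is the lowest of the Cre+ libraries.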

How the data were processed

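Hearts were flash frozen and RNA was extracted with a Qiagen kit for fibrous tissue. Libraries of experiment A were made with the Ion Total RNA-Seq Kit v2 and those of experiment B with the Illumina TruSeq stranded mRNA kit, per the labels' protocols. The submitters' processing notes name STAR 2.6.0c, DESeq and mm10, without roles. No annotation, counter, strand setting or normalization of experiment B is stated in the sources used. The deposited files of experiment A hold the authors' estimated counts per gene and per exon, and a table of their own comparison with a mean signal, a log2 fold change and p-values per gene. For experiment B they deposited normalized counts rounded to whole numbers, treated here as a score and not as counts, since their depth is unknown. One further Cre+ library named in the labels was not analysed here. Each library has its own number in the labels, which do not state that each came from a separate animal. The p-values rest on the spread between libraries, which is technical where libraries share an animal.

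Estimated counts were rounded and tested in R 4.3.3 with edgeR 4.0.16 (TMM, filterByExpr, robust quasi-likelihood). Experiment B was tested with limma 3.58.1 (trend and robust) on log2(value + 1) for genes with a mean of at least 10, with sex as a term. p-values were adjusted by Benjamini-Hochberg over all genes tested, with a threshold of 0.05. Alternatives were DESeq2 1.42.0, other scalings, pseudocounts, filters and covariates, and leaving out each library. Steps were tested on simulated data with 200 changed genes. GENCODE M21 held 36308 of the 38087 gene identifiers of experiment A and 54165 of the 54232 of experiment B. The members and lists were chosen with earlier results of these data known. All 10 members are named, and of each other list every called gene, or else the 3 of smallest p. Of marker lists the summed level is given, and for profiles the 5 most alike genes, with a pseudocount of 0.1 in experiment A.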

Additional observations from a re-analysis of the deposited data

Results flagged for a closer look

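Adamtsl2 in control replicate 4 lay far below the other libraries of its group. This control library held 23 normalized counts of Adamtsl2, while the other 4 controls held 257 to 574. On the log2(value + 1) scale the gap to the next control was 0.748 of the group's range, above Dixon's critical value of 0.71 for 5 libraries. Of 20 groups of values examined in experiment B, this was the 1 that passed, and chance flags about 1 in 20. The same library had the lowest Adamts10 value and the highest Cap2 value of the controls. Without it the log2 fold change of Adamtsl2 was 2.35 (limma adjusted p = 0.00414).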

How the results depend on the processing

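In experiment A the 220 genes called became 402 with DESeq2, 512 without the filter and 126 to 275 when each library was left out in turn. Of the 8 members other than Adamts8 and Adamts7, the 1 called became 2 with DESeq2, 2 without the filter, 1 with a replicate block and 1 to 3 leaving out libraries, with 3 without WT replicate 2 and 2 without CAP2 -/- replicate 1. Genes of the 5 other lists called, 5, became 4 to 7, and 6 with a replicate block. In experiment B the 228 genes called became 346 without the filter, 394 with a replicate block, 36 with the mitochondrial share and 20 with the atrial markers as a covariate, and 39 to 695 leaving out single libraries. The 2 members called there, Adamts8 and Adamts7 left aside, became 0 without the filter, 0 with the mitochondrial and 0 with the atrial covariate, 1 without the sex term, 2 with a replicate block, and 0 to 2 leaving out libraries. The 5 genes of other lists became 15 with a replicate block, 1 and 0 with the 2 covariates in that order, and 1 to 15 leaving out libraries. The causes of these shifts were not tested. Same-numbered samples did not deviate together (correlations -0.17 to -0.02 in experiment A and -0.11 to 0.24 in experiment B), so the replicate numbers were not read as pairs. Adamtsl2 was called under all 10 alternatives in experiment A. In experiment B it was called under 9 of 19, where the adjusted p was 0.0992 without the filter and 0.0682 without the sex term, and Adamts2 under 9 of 19 (0.0529 without the filter). Adamts8 ran from 2.96 to 3.83 in experiment A and from 4.22 to 6.37 in experiment B, and Adamts7 from -0.76 to -0.49 and from -2.64 to -2.12. Uncalled members changed direction under some alternatives: Adamts4 in 3, Adamts5 in 1, Adamts10 in 1 and Adamts15 in 5 of 10 in experiment A, and Adamts1 in 1, Adamts5 in 3, Adamts10 in 7 and Adamts15 in 1 of 19 in experiment B. The Adamts5 to Adamts1 ratio differed by 0.36 to 0.72 in experiment A and by -0.77 to 0.47 in experiment B when single libraries were left out, the last without Cre+ replicate 4. Of 10 ranks per kilobase, coding length kept 4 in CAP2 -/- and 7 in WT hearts, and 6 in Cre+ and 4 in control hearts. The longest transcript kept 6 in CAP2 -/- and 5 in WT hearts, and 8 in Cre+ and 10 in control hearts. The depth of experiment B is unknown, so no limit is drawn from it.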
